A study of Homo sapiens with 12 samples.

Results

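DNA is copied at the replication fork by a set of proteins that act together, and the 41 genes described here encode the fork's polymerases, clamp and clamp loader, helicase partners, firing kinase, flap processing enzymes, fork protection factors and chromatin assembly factor. They were taken by symbol from a list of replication genes, which was drawn up with earlier results of these data known. All 41 were found among the 36615 symbols of the table, and all 41 passed the filter on low values, which left 13728 genes for testing. Poly(A) RNA was sequenced from HCT116, a human colorectal cancer cell line, in 4 groups of 3 libraries. The groups were p53-/- cells depleted of Mina53 (KD), p53-/- cells with a scrambled control (scr), p53+/+ cells depleted of Mina53, and p53+/+ cells with the scrambled control. Mina53 is a nucleolar oxygenase of the JmjC family, encoded by RIOX2. The labels do not state the depletion reagent, the time of harvest or how many clones stand behind the p53-/- line. Nothing states that the 3 libraries of a group came from separate cultures, so p-values measure the spread between libraries, which may be technical.

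At each origin the loaded MCM2-7 ring becomes an active helicase when CDC45 and the GINS complex join it, a step that needs the CDC7-DBF4 kinase. DNA polymerase alpha with primase then lays down primers, the RFC complex loads the PCNA ring, polymerase epsilon extends the leading strand, and polymerase delta extends the lagging strand, whose fragments are processed by FEN1 and DNA2 and sealed by LIG1. Many of these genes are transcribed at the passage from G1 into S phase under E2F control, and p53 is known to repress cell cycle genes through p21, the product of CDKN1A.

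The table's header names no unit, and from their sums and scale its values were taken to be FPKM, that is, fragments per length of transcript and per amount of mapped fragments, so levels can be compared between genes. Depth is unknown. RIOX2 was at 2.02 ± 0.242 FPKM in p53-/- KD cells against 9.09 ± 0.211 in p53-/- scr cells, and at 2.72 ± 0.291 in p53+/+ KD cells against 7.49 ± 0.252 in p53+/+ scr cells (SD, n = 3 each). CDKN1A was at 31.2 ± 1.77 FPKM in p53-/- KD cells against 14.3 ± 0.546 in p53-/- scr cells, and at 367 ± 4.32 in p53+/+ KD cells against 119.5 ± 1.97 in p53+/+ scr cells. Of the epithelial marker list 7 of 11 measured genes reached 1 FPKM in p53-/- cells and 6 of 11 in p53+/+ cells, led by KRT8, KRT18, KRT19 and EPCAM, while VIL1, CEACAM5, LGALS4 and GPA33 lay near 0. Markers of fibroblasts, immune and endothelial cells were near 0 apart from COL1A1 and CD68. Pearson's r between libraries was 0.992 to 0.995 within groups and at most 0.969 between groups, and no library stood apart. The 15 genes of the mitochondrial genome took 15.5% ± 0.366 of the FPKM total in p53-/- KD libraries against 11.5% ± 0.549 in p53-/- scr libraries, and 20.3% ± 0.844 in p53+/+ KD against 15.1% ± 0.290 in p53+/+ scr libraries, and the part of this share in the results was tested only by rescaling without those genes.

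Most of the replication genes were lower in Mina53-depleted than in control cells of both lines. In p53-/- cells 30 of 41 fell and 1 rose, where 29.9% of all genes tested fell and 28.9% rose. In p53+/+ cells 39 of 41 fell and 1 rose, where 32.2% of all genes fell and 28.5% rose. Over the 41 genes p53-/- cells had a median log2 fold change of -0.36 and p53+/+ cells one of -0.69, beside medians of -0.0028 and -0.016 over all genes. All 3 KD libraries lay below all 3 scr libraries for 30 genes in p53-/- cells (32% of all genes) and for 39 in p53+/+ cells (35% of all genes). All 30 genes that fell in p53-/- cells also fell in p53+/+ cells, so 30 of 41 fell in both, beside 20.7% of all genes. Of the 4103 genes tested that fell in p53-/- cells, 2838 fell in both lines. The single rise in each line was POLD4, the smallest subunit of polymerase delta. Calls are from limma on log2(FPKM + 1), with Benjamini-Hochberg adjustment over all genes and a threshold of 0.05. When libraries were rescaled after leaving out the mitochondrial genes, 28 of the 41 fell and 2 rose in p53-/- cells. In p53+/+ cells 37 fell and 1 rose. The count over all genes in p53-/- cells was then 3569 lower and 4490 higher, beside 4103 lower and 3968 higher without that step. In p53+/+ cells the count over all genes was 3419 lower and 4944 higher, beside 4418 lower and 3916 higher without that step. In bulk RNA, fewer cells in S phase and less of each RNA per cell cannot be told apart.

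Summed over the 41 genes, the level was 750, 771 and 772 FPKM in p53-/- KD libraries against 957, 959 and 959 in p53-/- scr libraries. In p53+/+ cells it was 491, 479 and 479 FPKM in KD libraries against 725, 719 and 760 in scr libraries. The groups did not overlap within either line, while the sums of depleted p53-/- and control p53+/+ libraries did overlap. PCNA led the order of levels in every group, at 97.7 ± 3.004, 126 ± 1.70, 96.6 ± 3.33 and 109 ± 4.87 FPKM in p53-/- KD, p53-/- scr, p53+/+ KD and p53+/+ scr cells. POLD2, FEN1 and RECQL4 took the next places in all groups, with POLD2 second. In p53-/- KD cells POLD2 (58.9 ± 2.81) and FEN1 (58.7 ± 1.40) did not differ beyond their spread. POLD3 and DNA2 were among the 3 lowest in each group. Across the 41 genes Pearson's r between the mean log2 level and the depletion effect was near 0 (-0.0966 in p53-/- and 0.0729 in p53+/+ cells, n = 41 genes that share the same libraries).

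**Figure D1:**
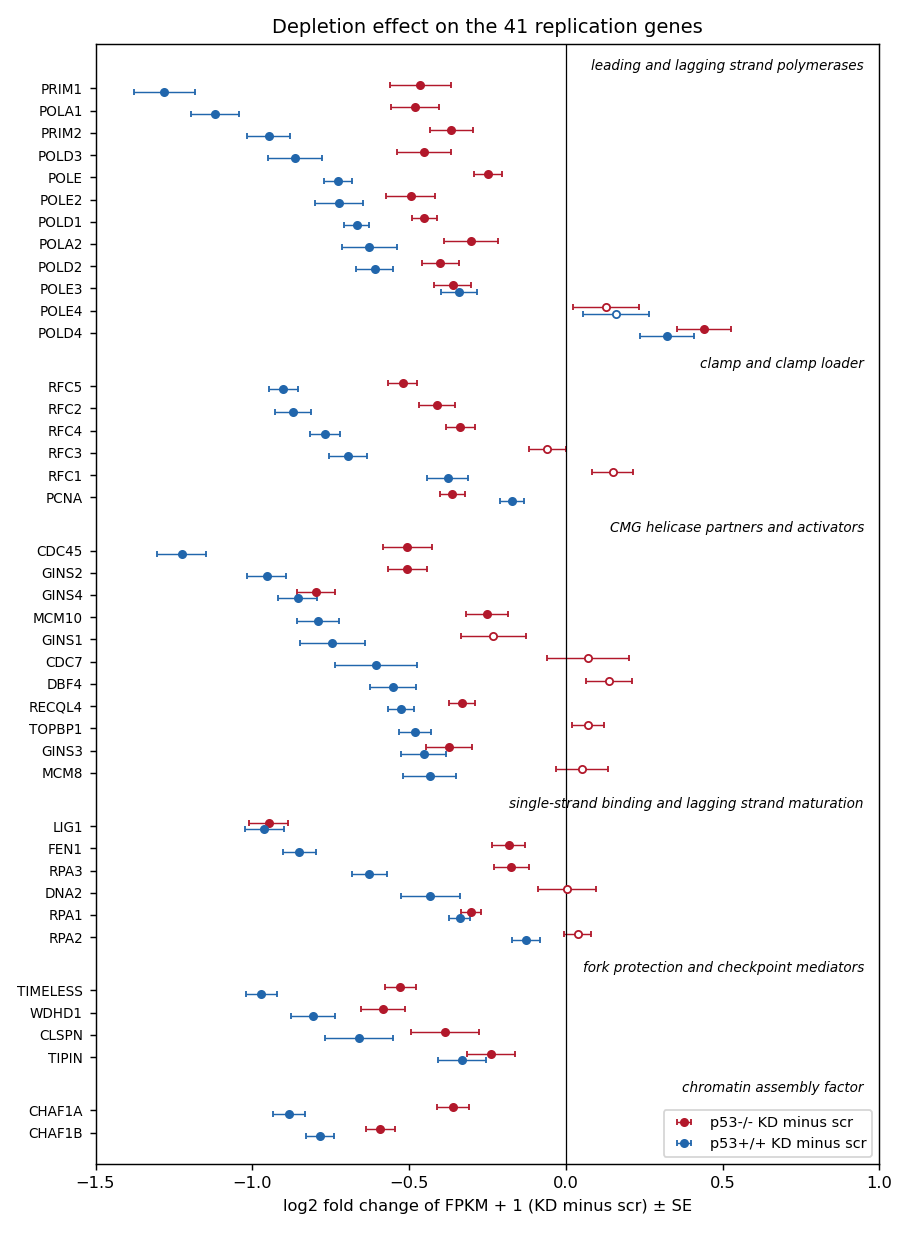
Log2 fold change (KD minus scr, on log2(FPKM + 1)) of each of the 41 genes in p53-/- cells (red, upper point) and p53+/+ cells (blue, lower point), with the SE of the fit; filled points passed the threshold. Most blue points lie left of the red ones, PCNA lies right of its red point, and POLD4 is the only gene with filled points right of 0.

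All 4 polymerase alpha and primase genes fell in both lines, beside 20.7% of all genes tested. PRIM1 had the deepest fall of the 41 genes in p53+/+ cells. PRIM1, the catalytic primase subunit, had 12.6, 12.7 and 12.4 FPKM in p53-/- KD libraries against 16.2, 18.1 and 19.1 in p53-/- scr libraries. It had 6.32, 5.46 and 4.24 FPKM in p53+/+ KD libraries against 13.9, 14.2 and 14.7 in p53+/+ scr libraries. Depleted libraries were below all controls in both lines, leaving 70.8% of control in p53-/- cells (log2 fold change -0.46, SE 0.097, adjusted p = 0.00137) and 37.5% in p53+/+ cells (-1.28, SE 0.097, adjusted p = 2.95e-07). The fall was smaller in p53-/- cells by 0.82 on the log2 scale (95% interval 0.52 to 1.12, adjusted p = 0.000903). POLA1, the catalytic subunit of polymerase alpha, had 6.03, 6.74 and 5.90 FPKM in p53-/- KD against 8.45, 9.81 and 9.02 in p53-/- scr libraries. It had 3.34, 3.28 and 3.08 FPKM in p53+/+ KD against 8.27, 7.28 and 9.08 in p53+/+ scr libraries. Its control levels in the lines overlapped, while its depleted levels did not, and the depletion effects differed by 0.64 (adjusted p = 0.000976). PRIM2, the large primase subunit, fell to 76.0% of control in p53-/- and 48.5% in p53+/+ cells, a difference of 0.58 (adjusted p = 0.000844). POLA2, the accessory subunit, fell to 79.4% and 58.7% in p53-/- and p53+/+ cells, and the difference of 0.32 did not pass (95% interval 0.06 to 0.59, adjusted p = 0.0606). It passed with a pseudocount of 0.1 (adjusted p = 0.0441) and without p53+/+ KD replicate 2 (0.0244) or p53+/+ scr replicate 3 (0.0251).

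Polymerase delta was the complex whose subunits moved in opposite directions. POLD1, the catalytic subunit, fell to 21.2 ± 0.912 FPKM in p53-/- KD cells against 29.3 ± 1.01 in p53-/- scr cells, and to 14.3 ± 0.229 in p53+/+ KD cells against 23.4 ± 0.542 in p53+/+ scr cells. POLD2 and POLD3, its accessory subunits, fell to 75.4% and 68.3% of control in p53-/- cells and to 65.2% and 43.2% in p53+/+ cells. POLD4, which stabilises the complex and is known to be degraded after DNA damage, had 9.22, 9.03 and 11.1 FPKM in p53-/- KD libraries against 7.004, 7.19 and 6.54 in p53-/- scr libraries. It had 9.27, 10.5 and 10.2 FPKM in p53+/+ KD libraries against 6.80, 8.17 and 8.43 in p53+/+ scr libraries. Every depleted library was above every control of its line, with log2 fold changes of 0.44 (SE 0.086, adjusted p = 0.000802) in p53-/- and 0.32 (SE 0.086, adjusted p = 0.00606) in p53+/+ cells. The effects in the lines were not told apart (difference 0.12, 95% interval -0.15 to 0.38, adjusted p = 0.484). The POLD4 to POLD1 ratio of FPKM was 0.461 ± 0.0326 in p53-/- KD cells and 0.236 ± 0.0109 in p53-/- scr cells, and 0.696 ± 0.0395 in p53+/+ KD cells and 0.333 ± 0.0306 in p53+/+ scr cells. The depletion effect was smaller in p53-/- cells for POLD1 (difference 0.22, adjusted p = 0.0128) and for POLD3 (0.41, adjusted p = 0.0215). The POLD3 call was lost without p53+/+ KD replicate 2 (adjusted p = 0.0505) or p53+/+ scr replicate 3 (0.0532). For POLD2 the difference of 0.21 did not pass (adjusted p = 0.0749), though it did without p53+/+ KD replicate 3 (0.0214) or p53-/- scr replicate 1 (0.0462).

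Of the 4 polymerase epsilon genes, POLE, POLE2 and POLE3 fell in both lines and POLE4 had no call in either. Over all genes tested, 20.7% fell in both lines. POLE, the catalytic subunit, fell to 22.3 ± 1.14 FPKM in p53-/- KD cells against 26.7 ± 0.741 in p53-/- scr cells, and to 11.03 ± 0.0686 in p53+/+ KD cells against 18.9 ± 0.791 in p53+/+ scr cells, with a difference of effects of 0.48 (adjusted p = 0.00017). POLE2, the second subunit, fell to 67.9% of control in p53-/- and 54.8% in p53+/+ cells, and the difference of 0.23 did not pass (adjusted p = 0.132; 0.0229 without p53+/+ KD replicate 1). POLE3 and POLE4 form a histone-fold pair that binds histones at the fork. POLE3 fell by similar amounts, to 77.4% of control in p53-/- and 78.2% in p53+/+ cells (difference -0.02, 95% interval -0.20 to 0.16). POLE4 had 4.41, 4.07 and 3.95 FPKM in p53-/- KD libraries against 3.44, 3.31 and 4.44 in p53-/- scr libraries. It had 6.37, 5.21 and 4.65 FPKM in p53+/+ KD libraries against 4.32, 5.02 and 4.80 in p53+/+ scr libraries. The POLE4 libraries overlapped in both lines and neither comparison passed (adjusted p = 0.317 in p53-/- and 0.21 in p53+/+ cells).

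PCNA encodes the sliding clamp, and its gene is a known direct target of p53. It had 94.3, 99.9 and 98.9 FPKM in p53-/- KD libraries against 126, 127 and 124 in p53-/- scr libraries. It had 95.5, 94.0 and 100.4 FPKM in p53+/+ KD libraries against 109, 104 and 114 in p53+/+ scr libraries. PCNA fell to 77.7% of control in p53-/- cells (log2 fold change -0.36, SE 0.039, adjusted p = 7.35e-06) and to 88.6% in p53+/+ cells (-0.17, SE 0.039, adjusted p = 0.00222). The p53+/+ call was lost with mitochondrial genes left out (log2 fold change -0.07, adjusted p = 0.106). PCNA was the only one of the 41 whose depletion effect was lower in p53-/- than in p53+/+ cells with a passing difference (-0.19, 95% interval -0.31 to -0.07, adjusted p = 0.0202), where 16.2% of all genes had a lower effect. That call was lost when low genes were kept in the test (adjusted p = 0.0515), without p53+/+ scr replicate 2 (0.0507) or without p53-/- KD replicate 1 (0.0531). Among depleted cells PCNA was not told apart between the lines (p53-/- against p53+/+ KD, log2 fold change 0.02, 95% interval -0.07 to 0.10; -0.06 with TMM-type scaling). PCNA made up 12.8% ± 0.194 of the summed FPKM of the 41 genes in p53-/- KD and 13.1% ± 0.176 in p53-/- scr libraries, and 20.0% ± 0.816 in p53+/+ KD and 14.8% ± 0.288 in p53+/+ scr libraries.

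The RFC genes, which encode the clamp loader, all fell in p53+/+ cells, and 3 of 5 fell in p53-/- cells. Beside these, 32.2% of all genes tested fell in p53+/+ and 29.9% in p53-/- cells. RFC1, the large subunit, had 17.2, 18.0 and 15.9 FPKM in p53-/- KD libraries against 14.2, 15.5 and 16.1 in p53-/- scr libraries. It had 12.8, 12.1 and 10.8 FPKM in p53+/+ KD libraries against 15.1, 16.1 and 16.001 in p53+/+ scr libraries. The p53-/- libraries overlapped and the p53+/+ libraries did not. RFC1 did not pass in p53-/- cells (log2 fold change 0.15, adjusted p = 0.0665), fell in p53+/+ cells (-0.38, adjusted p = 0.000297), and the effects differed by 0.53 (adjusted p = 0.00112). In p53-/- cells it passed as a rise with mitochondrial genes left out (adjusted p = 0.0309), and without p53+/+ KD replicate 3 (0.0396), p53-/- KD replicate 3 (0.0342) or p53-/- scr replicate 3 (0.0486). Of the small subunits, RFC2, RFC4 and RFC5 fell to between 68.4% and 78.6% of control in p53-/- cells and to between 51.8% and 57.0% in p53+/+ cells. RFC3 was at 12.4 ± 0.715 FPKM in p53-/- KD against 12.99 ± 0.621 in p53-/- scr cells (adjusted p = 0.418), and fell to 5.71 ± 0.387 in p53+/+ KD against 9.85 ± 0.482 in p53+/+ scr cells. All 5 RFC genes had a smaller fall or none in p53-/- cells, with differences between 0.38 and 0.64. Over all genes tested, 16.7% had a passing higher effect in p53-/- cells. RFC1 held 16.9% ± 0.804 of the RFC sum in p53-/- KD and 12.4% ± 0.737 in p53-/- scr libraries, and 20.3% ± 0.659 in p53+/+ KD and 15.4% ± 0.387 in p53+/+ scr libraries.

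**Figure D2:**
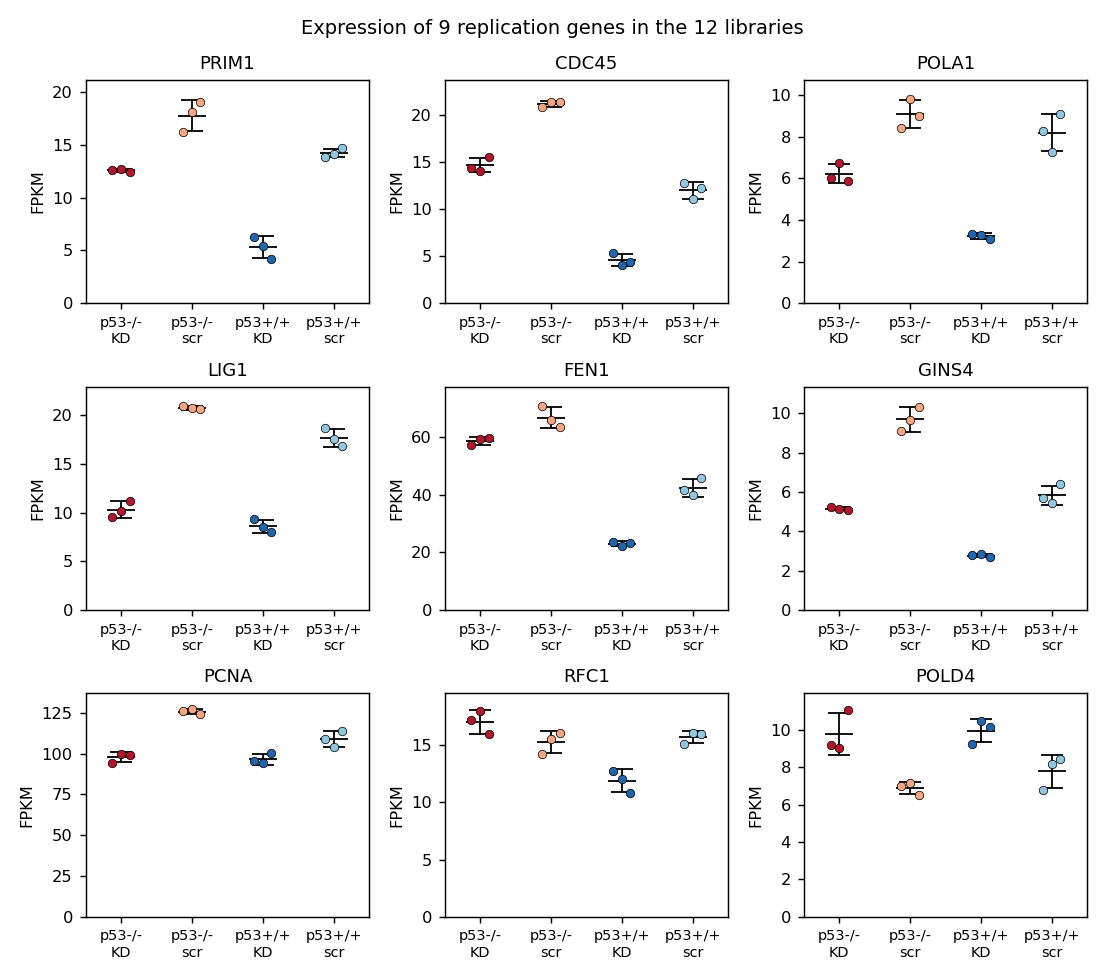
FPKM of 9 of the genes in each of the 12 libraries, with mean and SD (n = 3 per group). PRIM1, CDC45, POLA1 and FEN1 are lowest in p53+/+ KD cells, LIG1 and GINS4 fall in both lines, RFC1 falls in p53+/+ cells alone among the passing calls, and POLD4 is higher in KD than in scr cells of each line.

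Of the 11 genes listed as helicase partners and activators, which include MCM8, all fell in p53+/+ cells and 6 fell in p53-/- cells. Of all genes tested 32.2% fell in p53+/+ and 29.9% in p53-/- cells. CDC45, which joins the MCM ring, had 14.4, 14.1 and 15.5 FPKM in p53-/- KD libraries against 20.8, 21.4 and 21.4 in p53-/- scr libraries. It had 5.35, 4.02 and 4.40 FPKM in p53+/+ KD libraries against 12.8, 11.05 and 12.2 in p53+/+ scr libraries. No depleted library overlapped its controls, and CDC45 fell to 69.1% of control in p53-/- and 38.2% in p53+/+ cells, with a difference of 0.72 (SE 0.111, adjusted p = 0.000498). GINS4, of the GINS complex, had 5.24, 5.15 and 5.06 FPKM in p53-/- KD libraries against 9.09, 9.68 and 10.3 in p53-/- scr libraries. It had 2.79, 2.84 and 2.68 FPKM in p53+/+ KD libraries against 5.68, 5.42 and 6.39 in p53+/+ scr libraries. The depletion effect on GINS4 was of like size in the lines, -0.80 and -0.86 on the log2(FPKM + 1) scale in p53-/- and p53+/+ cells (difference 0.06, 95% interval -0.13 to 0.25, adjusted p = 0.643). In FPKM, GINS4 fell to 53.1% of control in p53-/- and 47.5% in p53+/+ cells. GINS2 fell to 69.0% and 47.5% and GINS3 to 74.9% and 69.4% of control in p53-/- and p53+/+ cells. GINS1 fell in p53+/+ cells to 55.0% of control and was at 83.9% in p53-/- cells, where it did not pass (adjusted p = 0.0709). It did pass there without p53-/- KD replicate 2 (0.0214), p53-/- scr replicate 1 (0.0230) or p53+/+ KD replicate 1 (0.0415).

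The firing kinase genes had no call in p53-/- cells. CDC7, the kinase, had 7.43, 7.15 and 6.34 FPKM in p53-/- KD libraries against 5.73, 7.22 and 6.89 in p53-/- scr libraries, and 4.83, 4.68 and 2.96 in p53+/+ KD libraries against 6.40, 6.53 and 7.28 in p53+/+ scr libraries. DBF4, its activating subunit, had 10.3, 11.5 and 10.5 FPKM in p53-/- KD libraries against 9.10, 9.35 and 10.6 in p53-/- scr libraries, and 6.15, 5.79 and 4.93 in p53+/+ KD libraries against 8.55, 8.86 and 8.60 in p53+/+ scr libraries. For both genes the p53-/- groups overlapped and every p53+/+ KD library was below its controls. The differences of effect were 0.67 for CDC7 (adjusted p = 0.0153; 0.0649 with no filter on low values) and 0.69 for DBF4 (adjusted p = 0.000443). DBF4 passed as a rise in p53-/- cells without p53-/- scr replicate 3 (adjusted p = 0.0438, against 0.126 with it). TOPBP1, which helps to load CDC45 and GINS, was at 105% of control in p53-/- cells (adjusted p = 0.258) and fell to 69.5% in p53+/+ cells (difference 0.55, adjusted p = 0.000175). Every p53-/- KD library of TOPBP1 lay above every p53-/- scr library, though without a call. MCM8, a relative of the replicative MCM genes that acts in recombination, was at 104% (adjusted p = 0.622) and 67.5% of control in p53-/- and p53+/+ cells. MCM10, which activates the helicase, and the helicase gene RECQL4 fell in both lines, to 82.8% and 79.2% of control in p53-/- cells and to 52.9% and 68.8% in p53+/+ cells. The effect on RECQL4 differed between the lines by 0.19 (adjusted p = 0.0243). That call was lost without p53+/+ scr replicate 1 or 3 or p53-/- KD replicate 1 or 3 (0.0504 to 0.0592), and with mitochondrial genes left out (0.0526).

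On the lagging strand LIG1 and FEN1 behaved unlike each other. LIG1, the ligase that seals the fragments, had 9.58, 10.2 and 11.2 FPKM in p53-/- KD libraries against 21.0, 20.7 and 20.6 in p53-/- scr libraries. It had 9.34, 8.48 and 8.03 FPKM in p53+/+ KD libraries against 18.7, 17.6 and 16.9 in p53+/+ scr libraries. LIG1 thus kept 49.6% of its control level in p53-/- cells (adjusted p = 1.09e-07) and 48.7% in p53+/+ cells (adjusted p = 7.92e-08), with a difference of 0.01 (95% interval -0.18 to 0.21, adjusted p = 0.922). Of the 41 genes it had the deepest fall in p53-/- cells. FEN1, the flap nuclease, had 57.1, 59.4 and 59.6 FPKM in p53-/- KD libraries against 70.7, 66.0 and 63.5 in p53-/- scr libraries. It had 23.7, 22.3 and 23.1 FPKM in p53+/+ KD libraries against 41.6, 39.8 and 45.7 in p53+/+ scr libraries. FEN1 fell to 87.9% of control in p53-/- and 54.4% in p53+/+ cells, with a difference of 0.67 (SE 0.0745, adjusted p = 5.35e-05), the smallest p of the 41. The LIG1 to FEN1 ratio of FPKM was 0.176 ± 0.0108 in p53-/- KD and 0.312 ± 0.0139 in p53-/- scr libraries, and 0.374 ± 0.0233 in p53+/+ KD and 0.420 ± 0.0443 in p53+/+ scr libraries. It did not overlap between p53-/- groups and overlapped between p53+/+ groups. DNA2, a nuclease for long flaps, was at 4.45 ± 0.160 FPKM in p53-/- KD and 4.46 ± 0.733 in p53-/- scr cells, and fell to 2.35 ± 0.301 in p53+/+ KD against 3.51 ± 0.276 in p53+/+ scr cells. Its difference of 0.44 (adjusted p = 0.0248) was lost in 5 of 12 fits that left out 1 library (adjusted p 0.0519 to 0.0602), namely those without p53+/+ KD replicates 2 or 3, p53+/+ scr replicate 3, or p53-/- scr replicates 1 or 2.

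The 3 RPA genes, whose products coat single-stranded DNA, moved unequally. RPA1 fell to 80.5% of control in p53-/- and 78.2% in p53+/+ cells (difference 0.04, 95% interval -0.06 to 0.14). RPA2 was at 36.8 ± 0.726 FPKM in p53-/- KD and 35.8 ± 0.942 in p53-/- scr cells (adjusted p = 0.492), and at 21.6 ± 0.836 in p53+/+ KD against 23.7 ± 1.29 in p53+/+ scr cells (log2 fold change -0.13, adjusted p = 0.0253). The RPA2 call in p53+/+ cells was lost with mitochondrial genes left out (-0.03, adjusted p = 0.57), in the fit of the 2 groups alone (0.0636), and without p53+/+ KD replicate 3 (0.0962), p53+/+ scr replicate 2 (0.114) or p53+/+ scr replicate 3 (0.0544). RPA2 passed in the difference of effects (0.16, adjusted p = 0.0621) only without p53+/+ scr replicate 1 (0.0281). RPA3 fell to 87.3% and 59.8% of control in p53-/- and p53+/+ cells (difference 0.45, adjusted p = 0.00119). Its p53-/- call (adjusted p = 0.0187) was lost with mitochondrial genes left out (0.0545) and without p53-/- KD replicate 2 (0.0675) or p53-/- scr replicate 1 (0.0514).

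All 4 fork protection genes and both chromatin assembly genes fell in both lines, beside 20.7% of all genes tested. TIMELESS, which holds polymerase and helicase together with TIPIN, had 16.7, 18.0 and 16.6 FPKM in p53-/- KD libraries against 24.9, 25.2 and 25.1 in p53-/- scr libraries. It had 9.28, 8.31 and 9.06 FPKM in p53+/+ KD libraries against 18.9, 17.4 and 18.9 in p53+/+ scr libraries. The groups did not overlap in either line, and the fall was smaller in p53-/- cells by 0.44 (adjusted p = 0.000583). Its partner TIPIN fell less, to 83.1% of control in p53-/- and 75.7% in p53+/+ cells (difference 0.09, 95% interval -0.14 to 0.33). The p53-/- call of TIPIN (adjusted p = 0.018) was lost with mitochondrial genes left out (0.0516), with no filter on low values (0.0539), and without p53-/- KD replicate 2 (0.0619) or p53-/- scr replicate 1 (0.0506). WDHD1, which tethers polymerase alpha to the helicase, and CLSPN, the mediator of CHEK1 activation, fell to 62.3% and 74.4% of control in p53-/- cells and to 49.0% and 57.3% in p53+/+ cells. Neither passed in the difference (adjusted p = 0.106 for WDHD1, or 0.034 without p53-/- scr replicate 3, and 0.197 for CLSPN). CHAF1A and CHAF1B, the large and middle subunits of the factor that deposits histones behind the fork, fell to 77.1% and 63.1% of control in p53-/- cells and to 51.8% and 51.3% in p53+/+ cells. The effect on CHAF1A differed by 0.52 (adjusted p = 0.000242). For CHAF1B the difference of 0.19 (adjusted p = 0.0391) was lost in 10 of 12 fits that left out 1 library (0.0566 to 0.0945), with TMM-type scaling (0.0523) and with mitochondrial genes left out (0.082).

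Set against each other directly, the depletion effect was higher, that is a smaller fall or none, in p53-/- cells for 26 of 41 genes and lower for 1, where 16.7% of all genes had a higher and 16.2% a lower effect. The median difference was 0.43 over the 41 genes and 0.0030 over all genes. With mitochondrial genes left out 24 were higher and 1 lower, while over all genes 1830 were higher and 2769 lower, beside 2286 higher and 2225 lower without that step. With no filter on low values 21 were higher and 0 lower, and POLD3 (adjusted p = 0.0659), GINS1 (0.0682), RECQL4 (0.0544) and DNA2 (0.0802) lost their calls beside CDC7 and PCNA. All 26 had fallen in p53+/+ cells, so 26 of 41 had both calls, beside 10.4% of all genes. Of the 2286 genes tested with a higher effect, 1431 had both calls. Of the 9 genes that fell in p53+/+ cells without a call in p53-/- cells, namely RFC1, RFC3, GINS1, CDC7, DBF4, TOPBP1, MCM8, RPA2 and DNA2, the difference passed for 8, with RPA2 the exception. Of all genes, 9.43% fell in p53+/+ cells without a call in p53-/- cells, and 4.94% did so with a passing higher difference. Over the 41 genes the effects in the lines, which share no library, correlated at r = 0.692 (Spearman's rho 0.706), beside 0.688 over all genes. These genes are measured in the same libraries and are not independent.

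**Figure D3:**
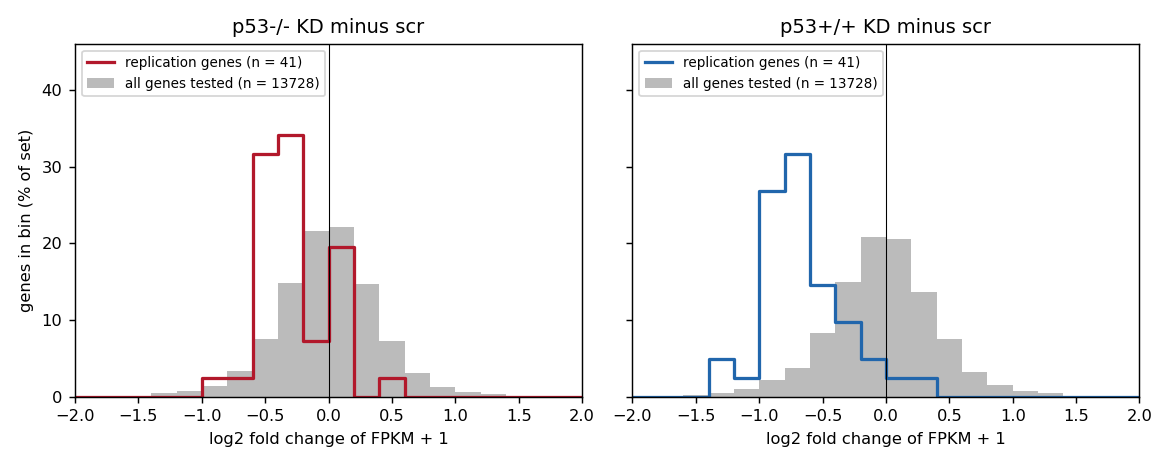
Share of genes per bin of 0.2 of the log2 fold change (KD minus scr) for the 41 replication genes (line) and all 13728 genes tested (grey), in p53-/- cells (left) and p53+/+ cells (right). The replication genes have medians of -0.36 in p53-/- and -0.69 in p53+/+ cells, and all genes centre near 0.

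Between the lines themselves the replication genes were mostly higher in p53-/- cells. Among scrambled controls 32 of 41 were higher in p53-/- than in p53+/+ cells and 2 were lower, where 36.7% of all genes were higher and 26.6% lower. The median was 0.43 over the 41 genes and 0.06 over all genes. The largest were POLA2 with 10.97 ± 0.202 FPKM in p53-/- scr and 5.75 ± 0.701 in p53+/+ scr cells, POLE3 with 46.9 ± 0.593 and 26.5 ± 2.08, and CDC45 with 21.2 ± 0.321 and 12.02 ± 0.899 in the same groups. RFC5 was lower in p53-/- cells, at 22.7 ± 0.664 FPKM in p53-/- scr and 26.8 ± 1.37 in p53+/+ scr cells (adjusted p = 0.00087), and so was POLE4 (log2 fold change -0.28, adjusted p = 0.0358). The POLE4 call was lost without any of p53+/+ scr replicates 2 and 3 or p53-/- scr replicates 1 and 2 (0.0836 to 0.132), with mitochondrial genes left out (0.0592) and with no filter on low values (0.106). PRIM1 was higher in p53-/- controls (0.30, adjusted p = 0.0177), though not without p53+/+ scr replicate 1 (0.0515) or p53-/- scr replicate 3 (0.0678), nor with no filter on low values (0.0634). DNA2 was higher too (0.27, adjusted p = 0.0248), though not without p53+/+ scr replicate 1 or 2 or p53-/- scr replicate 3 (0.0702 to 0.109), nor with no filter (0.0724). POLA1 (0.13, adjusted p = 0.146) and POLD4 (-0.15, adjusted p = 0.147) did not pass, but did without p53+/+ scr replicate 3 (0.0424) and without p53+/+ scr replicate 1 (0.0287). Controls serve here and in the depletion comparisons, so these results are not independent of each other.

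Among depleted cells the gap between the lines was wider. There 38 of 41 genes were higher in p53-/- than in p53+/+ KD cells and 1 was lower, where 37% of all genes were higher and 27.3% lower. The median was 0.77 over the 41 genes and 0.06 over all genes. CDC45 led with 14.7 ± 0.739 FPKM in p53-/- KD and 4.59 ± 0.685 in p53+/+ KD cells (log2 fold change 1.49, adjusted p = 9.75e-09), followed by FEN1 with 58.7 ± 1.40 and 23.0 ± 0.738 in the same groups (1.31). PCNA and POLD4 did not pass (adjusted p = 0.745 and 0.772), and POLE4 was lower in p53-/- cells (-0.31, adjusted p = 0.0217). The POLE4 call was lost without p53+/+ KD replicate 1 or p53-/- KD replicate 2 or 3 (0.0542 to 0.0998), and with no filter on low values (0.0685). RFC5 was higher by 0.15 (adjusted p = 0.0142), a call lost without p53-/- KD replicate 1 (0.0569) or 2 (0.0515) and with TMM-type scaling (0.12). POLD2, higher by 0.23 (adjusted p = 0.00533), was also lost with that scaling (0.0565). For 27 of 41 genes the mean in depleted p53-/- cells was above the mean in p53+/+ controls, as for 54% of all genes.

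**Figure D4:**
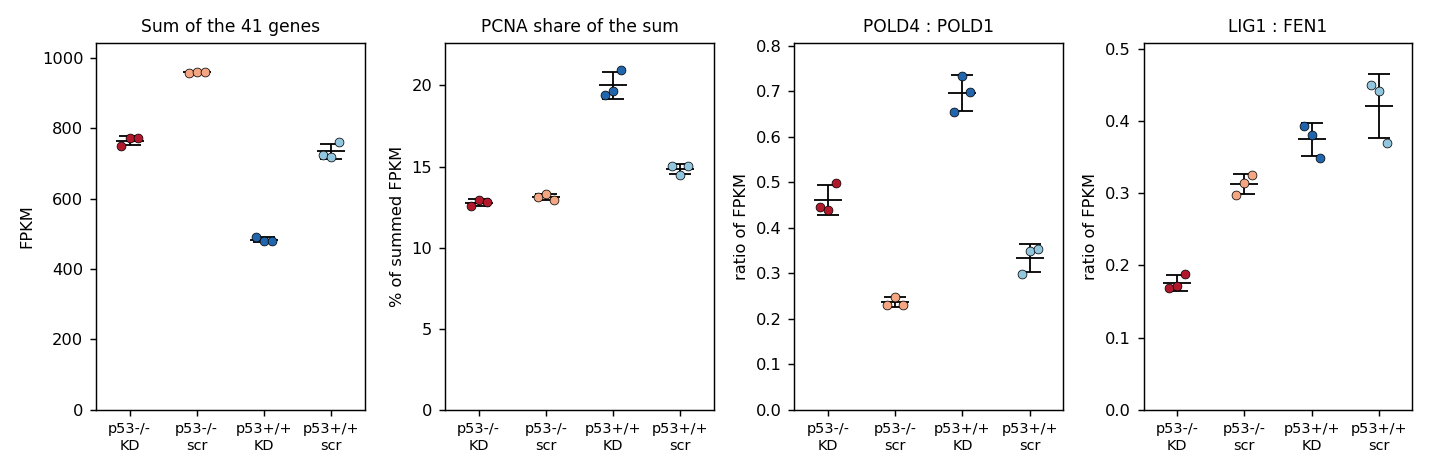
Sum of the 41 genes in FPKM, PCNA share of that sum in percent, and FPKM ratios POLD4 to POLD1 and LIG1 to FEN1, for each library with mean and SD (n = 3 per group). The PCNA share is highest in p53+/+ KD libraries at 20.0%, the POLD4 to POLD1 ratio is higher in KD than in scr libraries of each line, and the LIG1 to FEN1 ratio is lowest in p53-/- KD libraries.

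Promoter sequences are shown for the 2 largest falls and 2 smallest changes in p53+/+ cells, to set their E2F-type words side by side. RefSeq promoters (GRCh38.p14, 300 bases around each gene's start) were matched for 35 of the 41 genes, with the first listed promoter of each gene used. Words searched on both strands were TTTCCCGC, TTTCGCGC, TTTGGCGC and TTTGCCGC for E2F, TTTGAA for the cell cycle homology region and CCAAT for the NF-Y box, none of which overlaps another in the sequences printed. Words 1 letter away from the E2F words, such as TTTGGCGG in CDC45 and GTTCCCGC in PRIM1, were not counted. An E2F-type word was in 14 of the 35 promoters (40%), beside 3.33% of all 27305 promoters. CCAAT was in 19 (54.3%, beside 35.7%) and TTTGAA in 1 (2.86%, beside 15.4%). The 27305 promoters were not limited to the genes tested here, nor matched to the 35 for base composition. The 14 genes with an E2F-type word had a median log2 fold change of -0.33 in p53-/- and -0.68 in p53+/+ cells, and the 21 without it had -0.36 and -0.78. The promoters of the 2 largest falls in p53+/+ cells, PRIM1 at chr12:56752274-56752573 (- strand) and CDC45 at chr22:19479670-19479969 (+ strand), hold no E2F-type word as spelled here. POLA1, with the next largest fall in p53+/+ cells (-1.12), and LIG1, with the largest fall in p53-/- cells (-0.95), each hold 1. In p53-/- cells the PCNA change (-0.36) was near the median of the 41 genes (-0.36). Those of the 2 smallest changes among genes with a promoter entry (RPA2, with a smaller change in p53+/+ cells, has none), POLE4 at chr2:74958393-74958692 (+ strand) and PCNA at chr20:5126573-5126872 (- strand), each hold TTTCCCGC on the opposite strand, 31 and 59 bases before the gene start. The POLD4 promoter at chr11:67353547-67353846 (- strand) was added after its values were seen, as the gene that rose, and holds 3 CCAAT boxes and no E2F-type word. Capitals mark E2F-type words (8 letters) and CCAAT or ATTGG (5 letters), and each sequence is on the gene's strand.
PRIM1: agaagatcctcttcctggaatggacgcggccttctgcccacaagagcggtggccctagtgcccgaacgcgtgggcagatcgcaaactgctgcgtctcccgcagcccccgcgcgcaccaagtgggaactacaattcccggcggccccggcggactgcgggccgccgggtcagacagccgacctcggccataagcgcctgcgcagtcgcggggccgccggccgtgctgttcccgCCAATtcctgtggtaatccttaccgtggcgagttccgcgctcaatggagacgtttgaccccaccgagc
CDC45: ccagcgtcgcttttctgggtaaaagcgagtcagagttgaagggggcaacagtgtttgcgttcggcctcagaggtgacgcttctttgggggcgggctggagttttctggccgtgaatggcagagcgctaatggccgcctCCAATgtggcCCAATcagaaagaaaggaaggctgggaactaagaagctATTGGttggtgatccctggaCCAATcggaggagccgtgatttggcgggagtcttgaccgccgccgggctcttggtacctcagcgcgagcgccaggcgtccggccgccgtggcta
POLE4: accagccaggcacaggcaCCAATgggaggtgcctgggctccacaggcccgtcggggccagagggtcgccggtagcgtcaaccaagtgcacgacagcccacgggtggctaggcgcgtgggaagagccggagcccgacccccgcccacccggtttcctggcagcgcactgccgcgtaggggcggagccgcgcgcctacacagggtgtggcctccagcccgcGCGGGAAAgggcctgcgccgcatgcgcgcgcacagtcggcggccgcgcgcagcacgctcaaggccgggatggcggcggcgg
PCNA: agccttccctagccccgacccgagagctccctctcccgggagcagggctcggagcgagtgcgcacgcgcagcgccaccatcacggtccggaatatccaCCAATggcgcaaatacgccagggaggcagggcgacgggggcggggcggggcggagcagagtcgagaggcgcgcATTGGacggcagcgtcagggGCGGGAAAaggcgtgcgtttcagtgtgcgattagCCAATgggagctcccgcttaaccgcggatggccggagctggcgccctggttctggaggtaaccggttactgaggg
POLD4: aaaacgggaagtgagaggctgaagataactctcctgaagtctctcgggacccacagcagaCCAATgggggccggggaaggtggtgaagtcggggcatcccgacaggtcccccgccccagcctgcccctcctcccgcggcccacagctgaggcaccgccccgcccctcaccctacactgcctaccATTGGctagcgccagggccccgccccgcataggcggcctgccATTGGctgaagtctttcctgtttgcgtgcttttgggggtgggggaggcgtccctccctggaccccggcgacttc
A match is a description of letters and shows no binding, and a missing word says only that these letters are not in this window.

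Other genes of DNA replication were counted in 6 lists, and log2 fold changes in this paragraph are given for p53-/- and then for p53+/+ cells. Beside these counts, 29.9% of all genes fell and 28.9% rose in p53-/- cells, and 32.2% fell and 28.5% rose in p53+/+ cells. Of 15 licensing genes (ORC, CDC6, CDT1, GMNN and MCM2-7) 10 fell and 2 rose in p53-/- cells, and 12 fell and 0 rose in p53+/+ cells. MCM2, MCM7 and MCM4 of the replicative ring fell by 0.99, 0.47 and 0.51 on the log2 scale in p53-/- cells and by 1.34, 1.11 and 1.27 in p53+/+ cells. Of 18 other fork and firing genes 11 fell and 3 rose in p53-/- cells, and 14 fell and 1 rose in p53+/+ cells, with the histone chaperone ASF1B at -0.99 and -1.26, the topoisomerase TOP2A at -0.34 and -1.505, and RNASEH2A at -0.39 and -0.87. Of 9 nucleotide supply genes 7 fell in each line, with 0 rises in p53-/- cells and 1 rise in p53+/+ cells, and the rise was RRM2B. RRM2, the S phase subunit of ribonucleotide reductase, was at -1.996 and -2.23, TK1, the salvage thymidine kinase, at -0.63 and -1.07, and DUT at -0.43 and -1.14. Of 10 ATR checkpoint genes 4 fell and 3 rose in p53-/- cells and 5 fell and 0 rose in p53+/+ cells. In that list RAD9A was at -0.63 and -0.85 and CHEK1 at -0.35 and -0.89, while WEE1, which restrains CDK1, rose in p53-/- cells (0.78) and fell in p53+/+ cells (-0.29). Of 14 translesion and repair polymerase genes 4 fell and 4 rose in p53-/- cells and 3 fell and 5 rose in p53+/+ cells, with POLQ at -0.29 and -0.84, PRIMPOL at -0.65 and -0.68 and the mitochondrial polymerase POLG at 0.47 and 0.45. Of 17 genes of E2F, pocket protein and G1/S cyclin families (with CDKN1A) 8 fell and 4 rose in p53-/- cells and 12 fell and 3 rose in p53+/+ cells. CCNA2, the S phase cyclin, rose in p53-/- cells (0.24) and fell in p53+/+ cells (-1.11), and E2F4, a repressor of the family, fell by 1.59 and 0.96 in p53-/- and p53+/+ cells.

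Some of these values can hold reads of other genes. In GENCODE 29, FEN1 exons share 166 bases with TMEM258 on the opposite strand (mean 55.7 FPKM over the 12 libraries) and 49 bases with FADS2, and RFC4 shares 21 bases with EIF4A2 (185 FPKM). On the same strand POLD4 shares 650 bases with AP003419.1, POLA2 2012 bases with AP000944.2, POLD1 426 with AC020909.1 and PRIM1 362 with AC117378.1, none of which is analysed here. How overlapping reads were assigned is not stated, so the values of these genes are uncertain to that extent. Pseudogene copies of PCNA, DBF4, RPA2 and FEN1 were near 0, at no more than 0.0357 FPKM on average.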

How the data were processed

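RNA sequencing libraries of 12 HCT116 samples in 4 groups of 3 were analysed. Per the series' design text, RNA was poly(A) selected and sequenced on an Illumina instrument, and hg19 is named per the submitters' processing notes. No source used here names the aligner, the quantifier or the annotation. The deposited table gives 1 value per gene and library, read as FPKM computed by the authors, since the values are not whole, sum to 348822 to 372821 per library and name no unit. Because FPKM are relative to each library's total, a shift in a few abundant genes moves all others, and no counts or depths were available for intervals.

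Genes with at least 1 FPKM in at least 3 libraries were kept (13728 of 36615). limma 3.58.1 in R 4.3.3 was run on log2(FPKM + 1) with 1 mean per group over all 12 libraries and a variance trend. Fold changes on this scale understate changes of low genes. p-values were Benjamini-Hochberg adjusted over all genes tested, with a threshold of 0.05. The 5 comparisons were KD against scr in each line, the difference of these effects, and p53-/- against p53+/+ among scr and among KD cells. Alternatives were a pseudocount of 0.1, no filter, TMM-type scaling, mitochondrial genes left out, a replicate block, only the groups compared, no variance trend, and each library left out. The members and lists were chosen with earlier results of these data known. All 41 genes are named, with the 3 genes of smallest p in p53+/+ cells per other list. Promoters are from RefSeq (GRCh38.p14), and overlaps of genes, by name, from GENCODE 29.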

Additional observations from a re-analysis of the deposited data

Results flagged for a closer look

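For 27 of the 41 genes the depletion effect differed between the lines by limma's test of the difference itself (adjusted p under 0.05). Of all genes tested 16.7% had a higher and 16.2% a lower effect in p53-/- cells. Values are log2 fold changes in p53-/- minus those in p53+/+ cells. Among polymerase and primase genes the difference was 0.82 for PRIM1, 0.64 for POLA1, 0.58 for PRIM2, 0.48 for POLE, 0.41 for POLD3 and 0.22 for POLD1. Among clamp loader genes the difference was 0.64 for RFC3, 0.53 for RFC1, 0.46 for RFC2, 0.43 for RFC4 and 0.38 for RFC5. Among helicase partners and activators the difference was 0.72 for CDC45, 0.69 for DBF4, 0.67 for CDC7, 0.55 for TOPBP1, 0.54 for MCM10, 0.51 for GINS1, 0.49 for MCM8, 0.45 for GINS2 and 0.19 for RECQL4. Among single-strand binding and lagging strand genes the difference was 0.67 for FEN1, 0.45 for RPA3 and 0.44 for DNA2. Among fork protection and chromatin assembly genes the difference was 0.52 for CHAF1A, 0.44 for TIMELESS and 0.19 for CHAF1B. It was -0.19 for PCNA, where the fall was larger in p53-/- cells. Calls of CHAF1B, DNA2, RECQL4, POLD3 and PCNA were lost when single libraries were left out. With no filter on low values CDC7 and GINS1 lost theirs, as did DNA2, RECQL4, POLD3 and PCNA. Groups of 3 libraries are too small for a check of single samples against their group.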

How the results depend on the processing

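Of 3910 recomputed values, 31 had the other sign, and 0 of these 31 were called in either fit. The 3910 are values of the members and of RIOX2, without the depletion effects of RIOX2. Calls were lost for 68 values and gained for 19. PCNA between the lines among KD cells, with no call, was -0.06 with TMM-type scaling and 0.02 without it. With no filter on low values, 0 members were lower in the difference of effects, 1 was lower in p53-/- than in p53+/+ scr cells, and 0 were lower among KD cells. With mitochondrial genes left out, 2 members rose in p53-/- cells and 1 was lower in p53-/- than in p53+/+ scr cells. The summed level then averaged 778 FPKM in p53-/- KD, 943 in p53-/- scr, 499.9 in p53+/+ KD and 710.02 in p53+/+ scr cells. That step moved the median of all genes by 0.084 in p53+/+ and 0.042 in p53-/- cells. With a replicate block, 1 member was lower in p53-/- than in p53+/+ scr cells (POLE4 lost, adjusted p = 0.0568), CHAF1B lost its difference (0.0696) and POLA2 gained one (0.039). No effect shared by same-numbered libraries was seen: they correlated at -0.2269 to 0.1562 in their deviations, and 1 of 18 pairs passed 0.1. This cannot show whether same-numbered libraries were prepared together, which the labels do not state. Each library correlated best with its own number in 11 of 36 comparisons.

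With 1 library left out at a time, 29 to 31 members fell and 1 to 3 rose in p53-/- cells, and 38 to 39 fell in p53+/+ cells. In the difference 24 to 26 were higher and 0 to 1 lower. Among scr cells 30 to 33 were higher in p53-/- cells and 1 to 3 lower, and among KD cells 37 to 38 were higher and 0 to 1 lower. The difference could not be fitted with only the groups compared, since it needs all 4. FPKM without counts leave depth, and so the precision of low genes such as POLD3, DNA2 and POLE4, unknown.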
